A study of Mus musculus with 8 samples.

Results

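Monocyte and macrophage identity genes were followed through mouse HSPCs, the haematopoietic stem and progenitor cells from which the marrow makes blood. The 10 genes were the rows of the deposited count table with the symbols Ly6c2, Ccr2, F13a1, Cx3cr1 and Cd14, taken as the monocyte genes, and Mrc1, Cd68, Fcgr1, Msr1 and Mertk, taken as the macrophage genes. They are 10 of the 24421 genes listed, and all 10 were among the 12744 genes with enough counts to be tested. The division into 5 monocyte and 5 macrophage genes is a working one, since Cd14 and Fcgr1 are made by both kinds of cell.

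RNA was sequenced from 8 libraries in 4 groups of 2, taken from primary transplanted mice. The groups were dKO cells (double knockout; the series title names beta-catenin and Hoxa9) given wild-type PRMT1 (dKOPRMT), dKO cells given an enzymatically dead PRMT1 (dKOMut), dKO cells given an empty vector (dKOEV), and wild-type cells given an empty vector (WTEV). PRMT1 is the main enzyme of asymmetric arginine dimethylation. The design asks what each insert does in dKO cells, set against dKOEV, and what the double loss does, set against WTEV. All 4 groups had been transduced and transplanted. Not given here are the species of the inserts, how far host cells were removed, and whether replicates were separate animals or cultures. The p-values therefore measure the spread between these libraries alone, and it may be technical.

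Library totals ran from 15531344 to 22329749 counts. CPM below is the count per scaled library size. Prmt1 measured 981 and 976 CPM in dKOPRMT, 1744 and 1758 CPM in dKOMut, 189.7 and 194 CPM in dKOEV, and 188 and 192 CPM in WTEV, so the insert's transcript level differed between the PRMT1 groups as well as its activity. Hoxa9 lay between 1.87 and 5.79 CPM in the 6 dKO libraries and at 18.2 and 17.2 CPM in WTEV. Ctnnb1, the gene of beta-catenin, was only moderately lower, between 360.1 and 391 CPM in the 6 dKO libraries against 444 and 455 CPM in WTEV. The loss of beta-catenin is thus not visible in its gene-level RNA count. The labels name the cell type of every library as dKO, the WTEV libraries included, and the genotype of dKOMut replicate 2 names PRMT2; groups follow the titles. Xist, from the inactive X chromosome, was read only in the 2 WTEV libraries, and Ddx3y, from the Y chromosome, only in the 6 dKO libraries, so genotype and sex cannot be told apart in any comparison with WTEV. All 12 HSPC markers examined were detected, and they summed to 1111 to 1129 CPM in dKOPRMT, 1192 to 1224 in dKOMut, 1258 to 1320.4 in dKOEV and 1410.4 to 1422 in WTEV. Their levels were uneven: Slamf1 was at most 1.66 CPM and Procr at most 4.21 CPM, while Myb was at least 248 CPM.

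Monocytes arise in the marrow from HSPCs through committed progenitors under the receptor Csf1r and the transcription factors PU.1, Irf8 and Klf4. Classical mouse monocytes carry Ly6C and leave the marrow through Ccr2, and in tissues they can mature into macrophages, which gain scavenger, lectin and Fc receptors and a large lysosomal compartment, with the factor Maf among those of the mature state. In bulk RNA such as this, fewer cells of a type and less RNA per cell cannot be told apart.

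The main pattern was a fall of the macrophage genes in dKO cells given either insert, while the monocyte genes did not move together. Against dKOEV, all 5 macrophage genes fell in both dKOPRMT and dKOMut. Of the 5 monocyte genes, F13a1 and Ccr2 rose in both, Cd14 fell in both, and Ly6c2 and Cx3cr1 did not pass the test in either. A log2 fold change is given throughout as the first group named minus the second, ± its standard error, between 2 libraries and 2 libraries. "Rose" and "fell" are used for an adjusted p (Benjamini-Hochberg over 12744 genes) under 0.05 in edgeR's quasi-likelihood test.

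**Figure D1:**
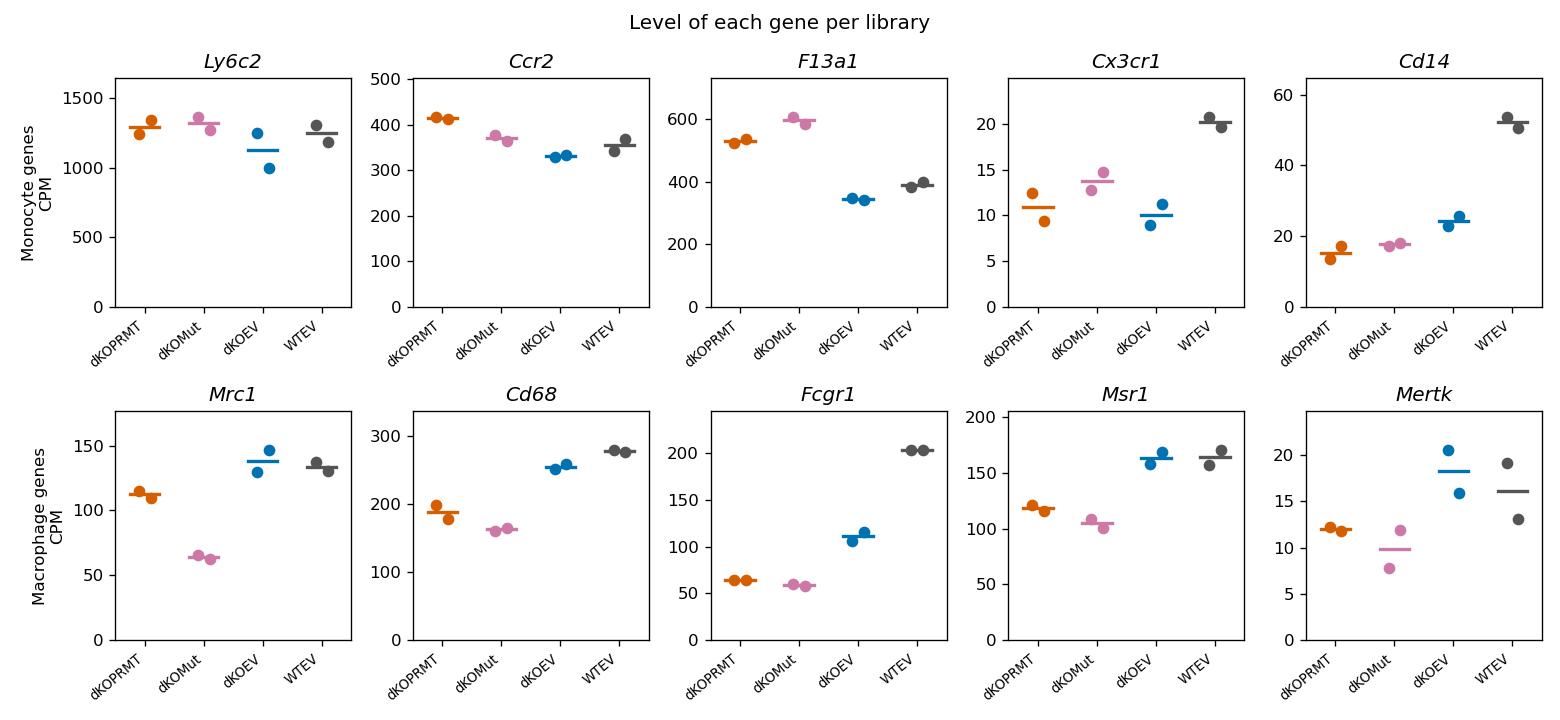
Level of each of the 10 genes in CPM (linear axes from 0), with 1 point per library, a bar at the group mean and groups in the order dKOPRMT, dKOMut, dKOEV, WTEV; the upper row holds the monocyte genes and the lower row the macrophage genes. Fcgr1 is at most 64.5 CPM with either insert, at 106 and 116 CPM in dKOEV and at 204 and 203 CPM in WTEV, while F13a1 is at least 522 CPM with either insert and at most 398 CPM in dKOEV and WTEV.

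Levels between genes were compared per transcript length, in TPM (counts divided by the deposited gene lengths and scaled to the same total in each library). Averaged over the 8 libraries, Ly6c2 stood first at 3059.6 TPM, above 99.7% of the tested genes. It was followed by Cd68 (349 TPM), F13a1 (233 TPM), Ccr2 (202 TPM), Fcgr1 (83.1 TPM), Msr1 (67.8 TPM), Mrc1 (41.6 TPM) and Cd14 (32.4 TPM). Mertk (7.79 TPM) and Cx3cr1 (7.19 TPM) were the lowest, above 31.8% and 30.6% of tested genes. Ly6c2, F13a1 and Ccr2 transcripts were thus abundant, and the macrophage genes covered a broad range of levels, with Mertk and Cx3cr1 measured on few reads. Which cells in the libraries made these transcripts was not tested.

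Upstream sequence is shown for the genes that mark the extremes of the data: Ly6c2 for the highest level, F13a1 for the largest increase with the inserts, and Mrc1 and Fcgr1 for the 2 largest falls with the mutant. Each runs 5′ to 3′ from 250 bases before to 50 after the RefSeq start on GRCm38.p6, and capitals mark motif matches found by search. Ly6c2 lies at chr15:75111888-75112187 (minus strand, a start 12 bases from the table's gene end), F13a1 at chr13:37050195-37050494 (minus), Mrc1 at chr2:14229164-14229463 (plus) and Fcgr1 at chr3:96293920-96294219 (minus).
Ly6c2: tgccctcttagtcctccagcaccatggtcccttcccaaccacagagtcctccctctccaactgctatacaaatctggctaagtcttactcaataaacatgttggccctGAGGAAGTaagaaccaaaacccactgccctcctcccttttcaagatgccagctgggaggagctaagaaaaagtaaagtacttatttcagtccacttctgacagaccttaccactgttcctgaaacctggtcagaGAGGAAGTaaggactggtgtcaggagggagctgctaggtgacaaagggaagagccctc
F13a1: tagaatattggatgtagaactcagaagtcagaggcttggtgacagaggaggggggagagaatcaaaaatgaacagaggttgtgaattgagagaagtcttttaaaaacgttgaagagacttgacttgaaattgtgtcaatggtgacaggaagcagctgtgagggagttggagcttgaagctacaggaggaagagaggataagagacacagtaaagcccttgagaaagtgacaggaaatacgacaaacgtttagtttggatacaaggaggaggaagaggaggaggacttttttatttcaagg
Mrc1: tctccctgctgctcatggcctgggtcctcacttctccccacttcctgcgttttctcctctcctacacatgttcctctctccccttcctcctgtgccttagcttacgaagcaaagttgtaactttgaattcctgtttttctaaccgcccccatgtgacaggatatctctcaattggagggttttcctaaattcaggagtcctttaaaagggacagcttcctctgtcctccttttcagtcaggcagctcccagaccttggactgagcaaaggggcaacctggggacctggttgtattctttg
Fcgr1: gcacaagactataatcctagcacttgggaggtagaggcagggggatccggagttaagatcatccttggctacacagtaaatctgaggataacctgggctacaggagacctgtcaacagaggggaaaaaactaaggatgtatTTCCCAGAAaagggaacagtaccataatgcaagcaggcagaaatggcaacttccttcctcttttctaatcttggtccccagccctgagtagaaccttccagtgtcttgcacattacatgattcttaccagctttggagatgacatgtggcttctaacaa
The search covered both strands of 8 of the 10 genes, those with an entry in the RefSeq promoter table, for motifs of 5 factor families of the lineage. The PU.1 motif GAGGAAGT occurred 2 times in Ly6c2 and in no other of the 8, against 3.2% of 32841 promoters of the same length. The interferon-gamma activated motif TTCNNNGAA occurred once in Fcgr1, against 8.3% of promoters, and the C/EBP motif TTGCNNAA once in Cd68, against 10.8%. The interferon response motif GAAANNGAA occurred once in Ccr2, against 8.56%, and the MAF half-site TGCTGAC (4.67% of promoters) in none of the 8. F13a1 and Mrc1, which moved in opposite directions, had no match to any of the 5 motifs in these windows.

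Among the monocyte genes, F13a1 rose most with the inserts. It encodes the A subunit of coagulation factor XIII, a transglutaminase that cross-links fibrin and is abundant in monocytes (chr13:36867178-37050244, minus strand). F13a1 stood at 522 and 536 CPM in dKOPRMT, 608 and 583 CPM in dKOMut, 349 and 341 CPM in dKOEV, and 383 and 398 CPM in WTEV. The 4 groups did not overlap. Against dKOEV it rose by 0.62 ± 0.04 in dKOPRMT (1.53-fold; adjusted p = 1.2e-14) and by 0.79 ± 0.04 in dKOMut (1.72-fold; adjusted p = 1.68e-17). Its fall in dKOEV against WTEV was small, at -0.18 ± 0.04 (adjusted p = 0.0013), so that the insert groups stood above WTEV as well, by 0.44 ± 0.04 in dKOPRMT (adjusted p = 3.45e-11) and 0.61 ± 0.04 in dKOMut (adjusted p = 6.87e-15).

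Ccr2, the receptor for Ccl2 and Ccl7 through which monocytes leave the marrow (chr9:124102183-124109140, plus strand), moved less. It stood at 418 and 413 CPM in dKOPRMT, 378 and 365 CPM in dKOMut, 329 and 333 CPM in dKOEV, and 343 and 369 CPM in WTEV. It was highest in dKOPRMT, and the dKOMut and WTEV libraries overlapped. Against dKOEV it rose by 0.33 ± 0.04 in dKOPRMT (adjusted p = 2.33e-07) and by 0.17 ± 0.04 in dKOMut (adjusted p = 0.00607), although without dKOMut replicate 1 the second rise did not pass (0.15, adjusted p = 0.0897). In dKOEV against WTEV the difference was -0.10 ± 0.04 (adjusted p = 0.095), and without WTEV replicate 1 it was -0.16 and past the threshold (adjusted p = 0.0461).

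Ly6c2 encodes a glycosyl-phosphatidylinositol-anchored Ly6 family antigen, the surface mark of classical mouse monocytes (chr15:75108161-75111949, minus strand). Its level was 1239 and 1346 CPM in dKOPRMT, 1368 and 1271 CPM in dKOMut, 1253 and 998 CPM in dKOEV, and 1309.9 and 1184 CPM in WTEV. The groups overlapped, except that both dKOMut libraries lay above both dKOEV libraries, and the lowest library was dKOEV replicate 2. The difference from dKOEV was 0.20 ± 0.13 in dKOPRMT (adjusted p = 0.448; 95% interval -0.16 to 0.56) and 0.23 ± 0.13 in dKOMut (adjusted p = 0.411; -0.13 to 0.59). Without dKOEV replicate 1 both passed, at 0.37 (adjusted p = 0.031) and 0.41 (adjusted p = 0.0284), so for Ly6c2 the comparison turns on that library. Reads shared with Ly6c1, a near-identical neighbour counted at 1 to 16 reads per library, leave both genes' split uncertain.

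Cx3cr1, the fractalkine receptor and a mark of nonclassical monocytes (chr9:120048683-120068296, minus strand), was low in every dKO group. It stood at 12.4 and 9.36 CPM in dKOPRMT, 12.8 and 14.7 CPM in dKOMut, 8.97 and 11.2 CPM in dKOEV, and 20.8 and 19.7 CPM in WTEV. Every dKO library lay below both WTEV libraries. In dKOEV it fell by 1.00 ± 0.17 on the log2 scale against WTEV (adjusted p = 5.53e-05). Neither insert moved it past the threshold from dKOEV, at 0.10 ± 0.18 in dKOPRMT (adjusted p = 0.775; 95% interval -0.26 to 0.47) and 0.43 ± 0.18 in dKOMut (adjusted p = 0.117; 0.07 to 0.79). The ratio of Ccr2 to Cx3cr1 in CPM was 33.6 and 44.1 in dKOPRMT, 29.6 and 24.8 in dKOMut, 36.7 and 29.7 in dKOEV, and 16.5 and 18.8 in WTEV.

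Cd14, the co-receptor that hands lipopolysaccharide to Tlr4, was the monocyte gene that fell with the inserts. It stood at 13.6 and 17.2 CPM in dKOPRMT, 17.3 and 18.2 CPM in dKOMut, 22.8 and 25.8 CPM in dKOEV, and 53.8 and 50.5 CPM in WTEV. The insert groups were lowest, then dKOEV, then WTEV, with no overlap between any of the 4. It fell by 1.10 ± 0.12 in dKOEV against WTEV (adjusted p = 1.18e-08), and the change from dKOEV was -0.66 ± 0.13 in dKOPRMT (adjusted p = 0.000243) and -0.46 ± 0.13 in dKOMut (adjusted p = 0.0143). The last call was lost without dKOEV replicate 2 (adjusted p = 0.129) or dKOMut replicate 1 (0.108), and in a fit of those groups alone (0.0522).

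Among the macrophage genes, Mrc1 separated the inserts. It encodes the mannose receptor CD206, an endocytic lectin of tissue and alternatively activated macrophages (chr2:14229414-14332023, plus strand). Mrc1 stood at 115 and 109.7 CPM in dKOPRMT, 65.3 and 62.4 CPM in dKOMut, 130 and 147 CPM in dKOEV, and 137 and 130.2 CPM in WTEV. dKOEV and WTEV overlapped, dKOPRMT lay just below them, and dKOMut lay far below all 6 other libraries. Against dKOEV it fell by 1.12 ± 0.07 in dKOMut (2.18-fold lower; adjusted p = 2.47e-15) and by 0.30 ± 0.06 in dKOPRMT (1.23-fold lower; adjusted p = 0.000763). The fall in dKOPRMT missed the threshold without dKOEV replicate 2 (-0.20, adjusted p = 0.0563).

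Set directly against dKOMut, dKOPRMT had 0.82 ± 0.07 more Mrc1 on the log2 scale (1.76-fold; adjusted p = 7.35e-11). This call stood with each of the 8 libraries left out in turn.

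Fcgr1 encodes CD64, the high-affinity receptor for IgG (chr3:96282909-96293969, minus strand). It stood at 64.1 and 64.5 CPM in dKOPRMT, 60.1 and 57.5 CPM in dKOMut, 106 and 116 CPM in dKOEV, and 204 and 203 CPM in WTEV. It was the macrophage gene that fell at both steps, in dKOEV against WTEV and in each insert group against dKOEV. In dKOEV it fell by 0.87 ± 0.06 against WTEV (1.83-fold lower; adjusted p = 2.31e-13). Against dKOEV it changed by a further -0.79 ± 0.07 in dKOPRMT (adjusted p = 7.87e-12) and -0.92 ± 0.07 in dKOMut (adjusted p = 2.93e-13). The insert groups did not differ past the threshold, at 0.13 ± 0.07 (adjusted p = 0.415; 95% interval -0.01 to 0.27).

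Cd68 encodes a heavily glycosylated protein of late endosomes and lysosomes (chr11:69664213-69666170, minus strand). It stood at 199 and 178 CPM in dKOPRMT, 161 and 165 CPM in dKOMut, 251 and 259 CPM in dKOEV, and 280.2 and 276 CPM in WTEV. No group overlapped another, and the falls past the threshold came with the inserts. Against dKOEV it fell by 0.43 ± 0.05 in dKOPRMT (adjusted p = 3.05e-08) and by 0.65 ± 0.05 in dKOMut (adjusted p = 3.32e-12), while the difference between dKOEV and WTEV was -0.13 ± 0.05 (adjusted p = 0.0895).

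Msr1, the class A scavenger receptor for modified lipoproteins and polyanions (chr8:39581700-39642678, minus strand), had a profile close to that of Cd68. It stood at 121 and 116 CPM in dKOPRMT, 109 and 101 CPM in dKOMut, 158 and 169 CPM in dKOEV, and 157 and 171 CPM in WTEV. Its dKOEV and WTEV ranges nearly coincided, with a difference of -0.01 ± 0.06 (adjusted p = 0.967; 95% interval -0.13 to 0.11). Against dKOEV it fell by 0.46 ± 0.06 in dKOPRMT (adjusted p = 2.5e-07) and by 0.63 ± 0.06 in dKOMut (adjusted p = 3.37e-10).

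Mertk encodes a receptor tyrosine kinase through which macrophages engulf apoptotic cells (chr2:128698997-128802188, plus strand). It was counted at 168 to 391 reads per library and stood at 12.2 and 11.8 CPM in dKOPRMT, 7.83 and 11.9 CPM in dKOMut, 20.6 and 15.9 CPM in dKOEV, and 19.1 and 13.1 CPM in WTEV. Relative to its level, its replicates differed more than those of the other macrophage genes in dKOMut, dKOEV and WTEV, but not in dKOPRMT. Against dKOEV it fell by 0.60 ± 0.19 in dKOPRMT (adjusted p = 0.0298) and by 0.89 ± 0.19 in dKOMut (adjusted p = 0.00136). Neither call is firm: in dKOPRMT it was lost without dKOEV replicate 1 (-0.40, adjusted p = 0.239), without either dKOPRMT library (0.136 and 0.186) and in DESeq2 (0.0699), and in dKOMut without dKOMut replicate 1 (-0.60, adjusted p = 0.0956).

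**Figure D2:**
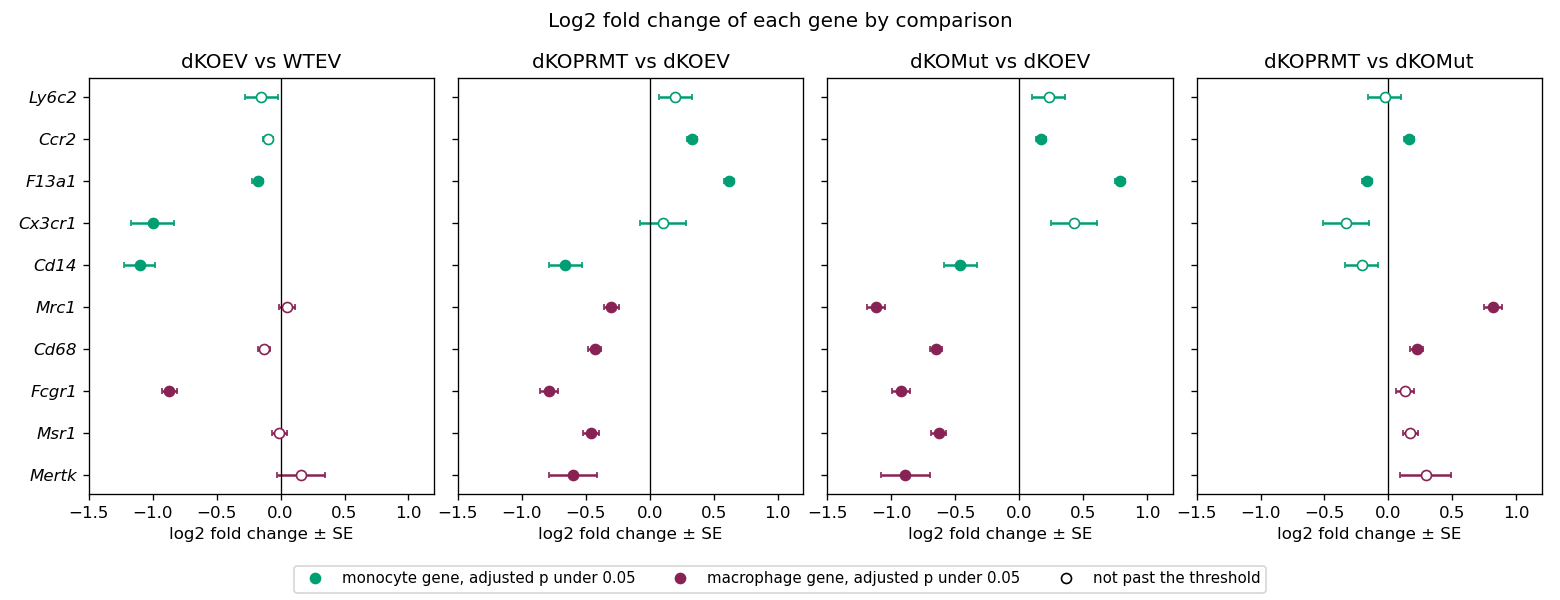
Log2 fold change of each gene, ± its standard error, in dKOEV against WTEV, dKOPRMT against dKOEV, dKOMut against dKOEV and dKOPRMT against dKOMut, left to right (filled symbols have an adjusted p under 0.05). With either insert the 5 macrophage genes lie left of 0 and F13a1 and Ccr2 right of it; between the inserts Mrc1 stands apart at 0.82.

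Counted together, 2 of the 10 genes rose and 6 fell in dKOPRMT against dKOEV, where 14.6% of all tested genes were called (5.96% higher and 8.67% lower). The same numbers, 2 higher and 6 lower, held for dKOMut against dKOEV, where 11.3% of genes were called (4.24% higher and 7.08% lower); without dKOMut replicate 1 that count fell to 1 higher and 4 lower. The members' calls were more frequent than the background in both directions. Since the 10 genes were chosen with earlier results of these data known, this excess is a description and was not tested. Both comparisons use the same dKOEV libraries and are not independent of each other. The median log2 fold change of the 5 macrophage genes was -0.46 in dKOPRMT and -0.89 in dKOMut, that of the 5 monocyte genes 0.20 and 0.23, and that of all tested genes within 0.002 of 0.

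The difference between the kinds of gene was also taken within each library, as the median of the 5 monocyte genes minus that of the 5 macrophage genes, after each gene's log2 CPM was centred on its mean over the 8 libraries. It was 0.14 and 0.34 in dKOPRMT, 0.72 and 0.45 in dKOMut, -0.38 and -0.51 in dKOEV, and -0.30 and -0.33 in WTEV. The 4 libraries with an insert were above 0 and the 4 with an empty vector below it. The spread between replicates, pooled over groups, was 0.125 (SD). Taken from the fitted log2 fold changes, the median of the monocyte genes minus that of the macrophage genes was 0.66 in dKOPRMT and 1.12 in dKOMut against dKOEV, and -0.17 in dKOEV against WTEV; the last is of the order of the replicate spread and was -0.29 without dKOEV replicate 1 and -0.10 without dKOEV replicate 2.

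**Figure D3:**
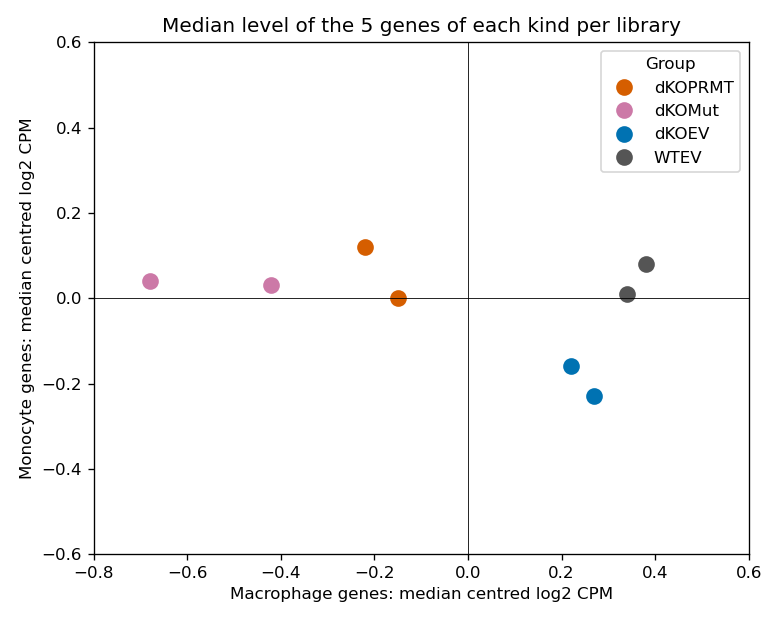
Median centred log2 CPM of the 5 macrophage genes (horizontal axis) and of the 5 monocyte genes (vertical axis), 1 point per library. The dKOMut libraries lie farthest left, at -0.68 and -0.42, then dKOPRMT at -0.15 and -0.22, with dKOEV at 0.22 and 0.27 and WTEV at 0.38 and 0.34; on the monocyte axis all libraries lie between -0.23 and 0.12.

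Most of the separation lay in the macrophage genes. Their summed level was 477 and 435 TPM in dKOPRMT, 378 and 375 TPM in dKOMut, 629 and 645 TPM in dKOEV, and 732 and 725 TPM in WTEV, with no overlap between groups. The summed level of the monocyte genes, which is mostly Ly6c2, was 3592 and 3828 TPM in dKOPRMT, 3868 and 3565 TPM in dKOMut, 3551 and 2849.6 TPM in dKOEV, and 3656 and 3359.8 TPM in WTEV, where dKOEV lay just below both insert groups and the other ranges overlapped. The ratio of F13a1 to Mrc1 in CPM separated all 4 groups: 4.52 and 4.89 in dKOPRMT, 9.31 and 9.34 in dKOMut, 2.69 and 2.31 in dKOEV, and 2.79 and 3.06 in WTEV. Among the members, F13a1 and Mrc1 had the largest rise and the largest fall in dKOMut against dKOEV, so their ratio is a description only.

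Between the inserts, 3 of the 10 genes were higher in dKOPRMT than in dKOMut (Ccr2, Mrc1 and Cd68) and 1 was lower (F13a1), where 3.11% of tested genes were called (1.43% higher and 1.68% lower). Mrc1 carried this comparison. Cd68 differed by 0.22 ± 0.05 (adjusted p = 0.0103), Ccr2 by 0.16 ± 0.04 (adjusted p = 0.0226) and F13a1 by -0.17 ± 0.04 (adjusted p = 0.00712). The count was 1, Mrc1 alone, without dKOMut replicate 1 or without dKOPRMT replicate 1, and Ccr2 lost its call without any 1 of the 4 libraries compared (adjusted p = 0.0573 to 0.276). The median log2 fold change was 0.22 for the macrophage genes and -0.17 for the monocyte genes, a gap of -0.39 that narrowed to -0.19 without dKOPRMT replicate 1. Since the dKOMut libraries also held more Prmt1 RNA, insert activity and insert level cannot be told apart here.

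With the empty vector, dKO cells differed from wild-type cells in 4 of the 10 genes, all lower (15.4% of tested genes were called, 8.44% higher and 7.00% lower). These were Fcgr1, Cd14, Cx3cr1 and F13a1. Mrc1, Msr1, Cd68 and Mertk did not pass, with differences of 0.05 ± 0.06, -0.01 ± 0.06, -0.13 ± 0.05 and 0.16 ± 0.19. The macrophage genes thus split, with Fcgr1 past the threshold at this step and the other 4 past it with the inserts only; the difference between their responses was not tested.

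Set against WTEV, which differs in genotype, insert and sex together, dKOPRMT had 2 of the 10 genes higher and 6 lower (23.2% of tested genes called, 11.0% higher and 12.2% lower), and dKOMut 1 higher and 7 lower (19.4% called, 9.41% higher and 9.96% lower). Fcgr1 was 3.16-fold lower in dKOPRMT (-1.66 ± 0.06, adjusted p = 1.59e-21) and 3.46-fold lower in dKOMut (-1.79 ± 0.06, adjusted p = 2.04e-22). Cd14 was 3.39-fold lower in dKOPRMT (adjusted p = 7.1e-14) and 2.93-fold lower in dKOMut (adjusted p = 1.8e-12). Mrc1 showed the inserts apart again: -0.25 ± 0.06 in dKOPRMT (adjusted p = 0.00354; lost without WTEV replicate 1 or dKOPRMT replicate 2, 0.0803 and 0.0841) and -1.07 ± 0.07 in dKOMut (adjusted p = 3.31e-15). Cx3cr1 and Mertk in dKOMut passed (adjusted p = 0.0146 and 0.00582), but Cx3cr1 was lost without either WTEV library or dKOMut replicate 1 and Mertk without WTEV replicate 1 or dKOMut replicate 1.

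The genes around the 10 were taken from lists of the lineage. Of 28 other macrophage genes, 24 were tested. Against dKOEV, 2 rose and 16 fell in dKOPRMT, and 1 rose and 17 fell in dKOMut, with medians of -0.64 and -0.71. Fewer of the rises in dKOPRMT, and fewer of the falls in both, passed when some single libraries were left out. The lysosomal protease Ctsb changed by -0.78 ± 0.03 in dKOPRMT and -0.80 ± 0.03 in dKOMut, the legumain gene Lgmn by -1.05 ± 0.05 and -1.15 ± 0.05, and Gpnmb, a glycoprotein of lysosome-rich macrophages, by -0.82 ± 0.03 and -0.77 ± 0.03 (adjusted p from 1.32e-17 to 1e-19 in dKOPRMT, and from 6.98e-19 to 1.42e-19 in dKOMut). These are falls of the size seen in Fcgr1.

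In dKOEV against WTEV, 2 of the 24 rose and 13 fell. Among the falls were the complement genes C1qb (-1.09 ± 0.08, adjusted p = 2.12e-12) and C1qc (-1.21 ± 0.11, adjusted p = 2.58e-10). Slc40a1 rose by 0.90 ± 0.08 (adjusted p = 1.17e-10), to a mean of 74 CPM in dKOEV against 39.7 CPM in WTEV. Fewer of the 13 falls passed when some single libraries were left out. Between the inserts, 5 were higher in dKOPRMT and 2 lower; Dab2, an endocytic adaptor, was higher (0.71 ± 0.07, adjusted p = 2.08e-08), as was Vcam1, an adhesion molecule of marrow macrophages (0.67 ± 0.11, adjusted p = 4.51e-05), and the lipid carrier Apoe was lower (-0.68 ± 0.10, adjusted p = 3.65e-05). The count of higher genes was 2 without dKOPRMT replicate 1 and 8 without either dKOEV library. Some genes that define resident tissue macrophages were at or near 0: Vsig4 had no count in any library and Timd4, Marco and Cd5l were at most 0.405 CPM, while the lineage receptor Csf1r stood at 399 and 387 CPM in dKOPRMT, 359 and 353 CPM in dKOMut, 464 and 483 CPM in dKOEV, and 539.5 and 524 CPM in WTEV.

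The other classical monocyte genes moved both ways. Of 20 tested, 4 rose and 6 fell in dKOPRMT against dKOEV, and 7 rose and 8 fell in dKOMut (4 and 4 without dKOMut replicate 1), with a median of -0.02 in both. Fn1, fibronectin, rose by 0.77 ± 0.06 in dKOPRMT (adjusted p = 1.28e-12) and 0.66 ± 0.06 in dKOMut (adjusted p = 6.45e-11), and Vcan, versican, by 0.62 ± 0.06 (adjusted p = 1.84e-10) and 0.59 ± 0.06 (adjusted p = 7.78e-10). Tgfbi, also a matrix protein, fell by 0.19 ± 0.04 in dKOPRMT (adjusted p = 0.00039) and 0.38 ± 0.04 in dKOMut (adjusted p = 1.6e-09). Mpeg1, a pore-forming protein of phagosomes, fell by 0.31 ± 0.03 in dKOPRMT (adjusted p = 2.21e-09) and by 0.10 ± 0.03 in dKOMut (adjusted p = 0.0364), where the call was lost without any 1 of 7 of the 8 libraries. In dKOEV against WTEV, 5 of the 20 rose and 3 fell (3 higher without either WTEV library or dKOEV replicate 2), and between the inserts 3 were higher and 3 lower (1 higher without dKOMut replicate 2 or dKOPRMT replicate 2).

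Of 10 other nonclassical monocyte genes, 8 were tested. In dKOPRMT against dKOEV 1 rose (0 without any 1 of 6 of the 8 libraries) and 1 fell, in dKOMut against dKOEV 3 rose and 2 fell (1 fell without dKOEV replicate 1 or either dKOMut library), and in dKOEV against WTEV 0 rose (1 without dKOEV replicate 2) and 2 fell. Cd36, a scavenger receptor shared by nonclassical monocytes and macrophages, fell in all 3: against dKOEV it changed by -1.71 ± 0.09 in dKOPRMT (adjusted p = 8.82e-17) and -2.35 ± 0.10 in dKOMut (adjusted p = 7.11e-20). It was 0.64 ± 0.11 higher in dKOPRMT than in dKOMut (adjusted p = 8.18e-05), and changed by -1.01 ± 0.08 in dKOEV against WTEV (adjusted p = 4.41e-12), at 77.2 against 156 CPM.

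**Figure D4:**
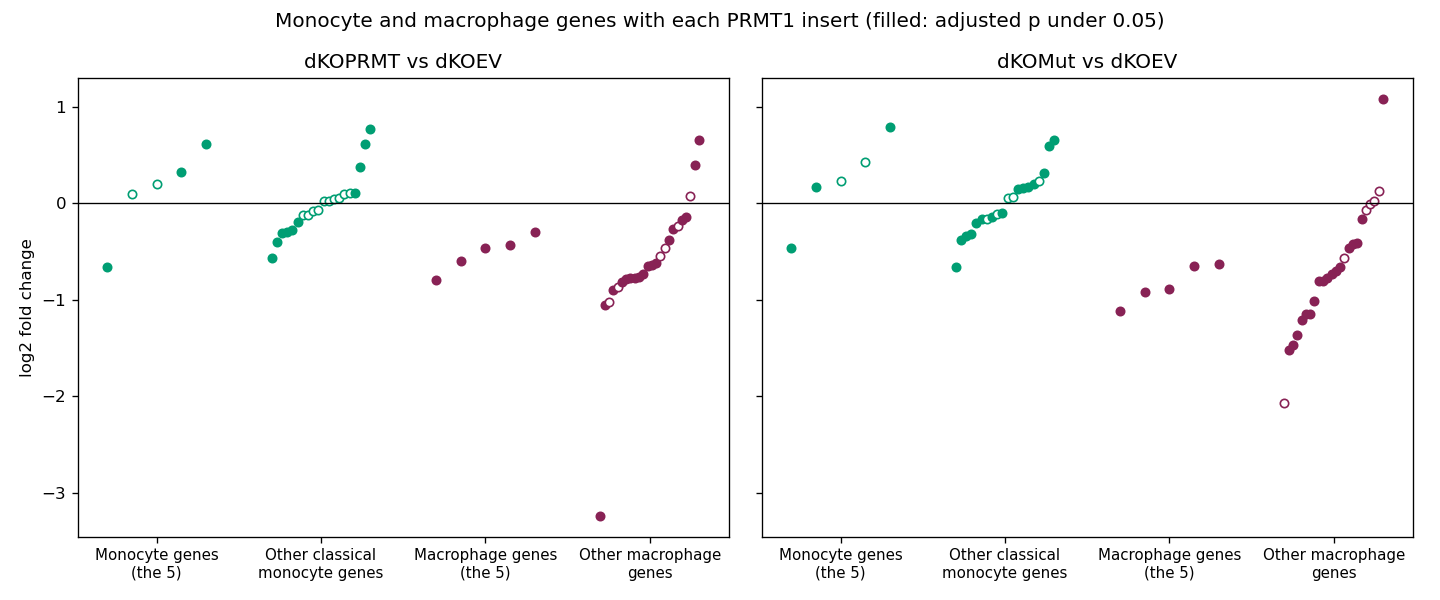
Log2 fold change of each tested gene among the 5 monocyte genes, the 20 other classical monocyte genes, the 5 macrophage genes and the 24 other macrophage genes, in dKOPRMT and dKOMut against dKOEV (filled, adjusted p under 0.05). The other classical monocyte genes spread to both sides of 0, with a median of -0.02 in each comparison, and the other macrophage genes lie mostly below it, with medians of -0.64 and -0.71.

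The transcription factors of the lineage were measured as a list of 20. Against dKOEV, 3 rose and 7 fell in dKOPRMT, and 1 rose and 9 fell in dKOMut (2 rose without dKOMut replicate 1). Maf, a factor of the mature macrophage, fell, with a change of -1.12 ± 0.10 in dKOPRMT (adjusted p = 2.86e-11) and -1.33 ± 0.10 in dKOMut (adjusted p = 7.1e-13). Irf8, which commits progenitors to the monocyte lineage, rose by 0.29 ± 0.06 in dKOPRMT (adjusted p = 0.000197) and 0.50 ± 0.06 in dKOMut (adjusted p = 1.33e-08). Its level was 134 and 131 CPM in dKOPRMT, 153 and 153 CPM in dKOMut, and 108 and 108 CPM in dKOEV. In WTEV it was 139 and 139 CPM, so dKOPRMT did not exceed WTEV. Gfi1, a repressor that favours the granulocyte branch, rose by 0.67 ± 0.07 in dKOPRMT (adjusted p = 6.36e-10) and measured 0.07 ± 0.07 in dKOMut (adjusted p = 0.587). In dKOEV against WTEV 7 rose and 3 fell. Maf fell, with a change of -0.73 ± 0.09 (adjusted p = 1.05e-07). Tfec rose by 0.52 ± 0.07 (adjusted p = 2.43e-07) and Irf4 by 1.23 ± 0.17 (adjusted p = 1.36e-06). Between the inserts 6 were higher and 1 lower, but as few as 1 was higher with a library left out (dKOMut replicate 2), and 0 were lower without any 1 of the 4 libraries compared.

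Of 21 ligands and partners of the 10 genes, 19 were tested. Against dKOEV, 3 rose and 6 fell in dKOPRMT (0 rose without dKOEV replicate 1 or dKOPRMT replicate 2, and 4 fell without dKOPRMT replicate 1), and 0 rose and 6 fell in dKOMut. The ligands of Ccr2 fell while the receptor rose. Ccl2 stood at a mean of 20.9 CPM in dKOPRMT, 12.4 CPM in dKOMut, 75.2 CPM in dKOEV and 133 CPM in WTEV, and changed against dKOEV by -1.84 ± 0.10 in dKOPRMT (adjusted p = 2.14e-16) and -2.61 ± 0.11 in dKOMut (adjusted p = 1.15e-19). Ccl7 changed by -2.29 ± 0.12 (adjusted p = 5.33e-17) and -3.13 ± 0.13 (adjusted p = 1.06e-19). Axl, a receptor of the same family as Mertk, changed by -0.73 ± 0.06 (adjusted p = 7.73e-12) and -1.01 ± 0.06 (adjusted p = 2.47e-15). In dKOEV against WTEV 2 of the 19 rose and 4 fell, and between the inserts 5 were higher in dKOPRMT (2 without dKOPRMT replicate 1) and 1 lower (0 without any 1 of the 4 libraries compared).

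Markers of other cells moved with these groups. The 17 neutrophil genes summed to 32649 to 33002 CPM in dKOPRMT, 33020.5 to 33684 in dKOMut, 25508 to 26569 in dKOEV and 18290.1 to 18295 in WTEV. Of them 10 rose and 4 fell in dKOPRMT against dKOEV, 12 rose and 0 fell in dKOMut against dKOEV, and 15 rose and 1 fell in dKOEV against WTEV. Their sum was thus higher in both insert groups, where the summed macrophage genes were lower, than in dKOEV and WTEV. Between the inserts the sums nearly met, at 33002 CPM in the higher dKOPRMT library and 33020.5 CPM in the lower dKOMut library. Of the 17 genes, 5 were higher in dKOPRMT than in dKOMut and 10 lower. The 9 mast cell and basophil genes summed to 553 to 559 CPM in dKOPRMT, 970 to 989.8 in dKOMut, 850.2 to 851 in dKOEV and 1475 to 1519 in WTEV, and the 14 dendritic cell genes to 1654 to 1684, 1365 to 1375, 1506 to 1644 and 1143 to 1153 CPM in the same order of groups. Most of the dendritic sum was Cd74, at 1263 and 1219 CPM in dKOPRMT, 985 and 993 in dKOMut, 1047 and 1166 in dKOEV and 733 and 721 in WTEV. Of the 14 dendritic cell genes, 3 rose and 3 fell in dKOPRMT against dKOEV, with a median log2 fold change of -0.81. In dKOEV against WTEV, 4 of them rose and 3 fell. B cell genes summed to at most 13.3 CPM and erythroid genes to at most 51.8 CPM in any library, T and NK cell genes to at most 118 CPM, and megakaryocyte genes to 166 to 304 CPM. The part of a change in cell makeup in the results for the 10 genes was not tested.

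The profiles of the 10 genes over the 8 libraries were compared by the root mean square difference of centred log2 CPM, as a description. The closest pair was Cd68 and Msr1 (0.0783) and the farthest F13a1 and Fcgr1 (0.987). Cd14 lay closer to Fcgr1 (0.196) than to any other of the 10, across the line between monocyte and macrophage genes. Among 9944 genes with a mean of at least 5 CPM, those nearest to Fcgr1 were Sptb (0.0957), the cathepsin Ctsl (0.114) and Ckb (0.118), and Sptb was also among the 3 nearest to Cd14 (0.159), with Osbpl5 (0.125) and the chemokine Ccl9 (0.168). Nearest to Mrc1 were Rab3il1 (0.136), Fam20c (0.153) and Myo1e (0.18). Nearest to Msr1 was the lectin Clec4a1 (0.0551), to Cd68 Parp12 (0.066), and to F13a1 E4f1 (0.0989). Ly6c2 and Ccr2, which varied little, had their nearest genes in Bod1l (0.0441) and Mphosph10 (0.0332), and Cx3cr1 and Mertk, measured on few reads, in Gpt2 (0.15) and Mfsd12 (0.172).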

How the data were processed

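The authors deposited 1 table of raw read counts per gene for 8 libraries, with gene coordinates and lengths. Per the submitters' processing notes, GRCm38 (mm10) was used with STAR 2.7.6a, featureCounts and Trim Galore 0.6.6; the sources used here give no strand setting. Per the labels' protocols, RNA came from an RNeasy Plus Micro kit and libraries from a directional kit. No exon of the 10 genes overlapped another listed gene's. The robust quasi-likelihood test of edgeR 4.0.16 (R 4.3.3; filterByExpr, TMM) was fitted by group to all 8 libraries, with 4 residual degrees of freedom and a median of 30.4 prior ones; the prior was small for Ly6c2 (4.3 degrees of freedom in all). CPM uses TMM-scaled library sizes and a prior count of 2 on the log2 scale. The steps were tested on simulated data. Replicates differed by more than sampling noise. Alternatives used DESeq2 1.42.0, limma 3.58.1, other filters and each library left out. The 10 genes and the lists were chosen with earlier results of these data known. Named genes were the 10, up to 3 called genes per list and comparison with the smallest p, and the 3 nearest profiles of each member. Which libraries decide a list's count was examined after the data were seen.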

Additional observations from a re-analysis of the deposited data

How the results depend on the processing

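Of the 60 log2 fold changes (10 genes, 6 comparisons), DESeq2 size factors, no count filter, a minimum of 1 CPM in 2 libraries and a replicate block each kept direction and call in 60. The block changed no call among them: 1952, 1853, 1414, 403, 2953 and 2462 genes were called with the replicate block, in the order dKOEV against WTEV, dKOPRMT against dKOEV, dKOMut against dKOEV, dKOPRMT against dKOMut, dKOPRMT against WTEV and dKOMut against WTEV. Same-numbered libraries deviated together with correlations of -0.05 to 0 over the tested genes, which shows no pairing. Whether same-numbered libraries shared an origin is not known. Msr1 in dKOEV against WTEV was 0 in limma voom, and Mertk in dKOPRMT against WTEV passed in a fit of those groups alone (-0.44, adjusted p = 0.0377). Leaving out 1 library at a time kept 441 of 480 values' direction and call, lost 23 calls, gained 4 and turned 12 signs, all of values not called. Those signs turned in Msr1 (-0.07 to 0.05), Mertk (-0.08 to 0.47), Ly6c2 (-0.33 to 0) and Mrc1 (-0.05 to 0.14) for dKOEV against WTEV, Cx3cr1 for dKOPRMT against dKOEV (-0.11 to 0.29), and Ly6c2 for dKOPRMT against dKOMut (-0.09 to 0.03) and against WTEV (-0.02 to 0.13). Without 1 library, in the same order of comparisons, the members called ranged over 4 to 5, 7 to 8, 5 to 9, 1 to 4, 7 to 9 and 6 to 8; all genes called over 1149 to 1996, 1058 to 1945, 977 to 1452, 171 to 550, 1954 to 3394 and 1649 to 2838; and the monocyte minus macrophage gap over -0.29 to -0.10, 0.66 to 0.78, 0.87 to 1.17, -0.44 to -0.19, 0.43 to 0.66 and 0.77 to 1.12. The lone library left in a group was assumed to vary like the others. With Cx3cr1, Cd14 and F13a1 left out, the gap between the inserts was -0.15 against -0.39, and the other 5 gaps moved less. That left Ly6c2 and Ccr2 as the only monocyte genes, against all of the macrophage genes. Fcgr1, which both kinds of cell make, was not left out. Depth limits Mertk and Cx3cr1 most, at 141 to 425 reads per library.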
